A study of Rattus norvegicus with 12 samples.

Results

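The 9 genes described here encode enzymes that turn the open chain of squalene epoxide into cholesterol: Lss, Cyp51, Tm7sf2, Msmo1, Nsdhl, Hsd17b7, Ebp, Sc5d and Dhcr7. The genes were chosen with earlier results of these data known, and their probe sets by annotation. Every probe set assigned to 1 of these genes alone was taken, which gave 15 of the 31099 probe sets on the array and 9 of the 14217 genes that had a probe set of their own. The arrays measured total RNA from the livers of adult male Sprague-Dawley rats, 10 weeks old, 1 rat per array. Myclobutanil was given at 300 mg/kg/day to 3 rats, propiconazole at 300 mg/kg/day to 3 rats and triadimefon at 175 mg/kg/day to 3 rats, by gavage every 24 h over a 72 h exposure. A control group of 3 rats completed the 12 arrays, and the labels do not say what the control animals were given. The 3 compounds are triazole fungicides, and triadimefon was set beside the other compounds without a test between them because its dose differed.

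Triazole fungicides act on fungi through the haem iron of the fungal form of Cyp51, the cytochrome P450 that strips a methyl group from lanosterol, and the mammalian enzyme does the same step on the way to cholesterol. In liver these genes are transcribed under the control of SREBP-2, a factor that is released from the endoplasmic reticulum when the membrane there is poor in cholesterol and that acts at promoters together with NF-Y and Sp1. Lss closes the sterol ring, Cyp51 works on the fresh lanosterol and Tm7sf2 on the product of the Cyp51 step. Msmo1, Nsdhl and Hsd17b7 remove the remaining methyl groups as a set. Ebp, Sc5d and Dhcr7 shift, add and reduce double bonds of the last intermediates, in that order. The study compared liver expression under the 3 compounds with control liver, and the question here is how transcripts of Cyp51 and of its neighbours in the pathway stood in each group.

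Promoter windows of all 9 genes were matched in the RefSeq promoter table of build GRCr8, each running from 250 bases before to 50 bases after the gene's start. CCAAT, the core of the NF-Y motif, lay on either strand in 7 of the 9 windows, against 37.5% of all 33469 promoters of the same length. GGGCGG, the core of the Sp1 motif, lay in 8 of the 9 windows, against 33.1% of all promoters. The sterol regulatory element core TCACNCCAC lay in 0 of the 9 windows, against 1.12% of all promoters, which says only that these letters are not in these windows. Cyp51 and Dhcr7 held no CCAAT, and Nsdhl held no GGGCGG. The 150 bases before the start are shown for 3 genes on which the comparisons turn: Cyp51, the lanosterol demethylase itself, Msmo1, which differed most between the compounds at equal dose, and Nsdhl, which passed the test. Capitals mark CCAAT or GGGCGG on either strand, so that they also appear as ATTGG or CCGCCC.
Cyp51, plus strand of chr4:30991543-30991692: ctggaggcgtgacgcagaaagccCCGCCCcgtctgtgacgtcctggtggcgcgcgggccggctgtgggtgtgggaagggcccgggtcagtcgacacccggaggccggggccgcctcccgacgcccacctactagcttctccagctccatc
Msmo1, plus strand of chr16:29746963-29747112: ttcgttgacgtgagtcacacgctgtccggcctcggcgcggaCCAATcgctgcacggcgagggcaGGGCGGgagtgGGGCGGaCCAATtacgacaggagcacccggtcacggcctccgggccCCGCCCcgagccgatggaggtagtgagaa
Nsdhl, plus strand of chrX:155817210-155817359: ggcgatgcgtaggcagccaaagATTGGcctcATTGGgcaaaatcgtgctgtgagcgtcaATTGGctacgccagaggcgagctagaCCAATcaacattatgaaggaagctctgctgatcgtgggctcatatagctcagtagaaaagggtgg
Over its whole window Nsdhl held 5 NF-Y matches and 0 Sp1 matches, Cyp51 held 0 and 2, and Msmo1 held 3 of each. Lss held 1 NF-Y and 2 Sp1 matches, Tm7sf2 and Ebp 2 and 1 each, Hsd17b7 3 and 3, Sc5d 1 and 3, and Dhcr7 0 and 2, with the Dhcr7 matches overlapping each other by a base. A match is a description of the sequence and not evidence that a factor binds there.

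**Figure D1:**
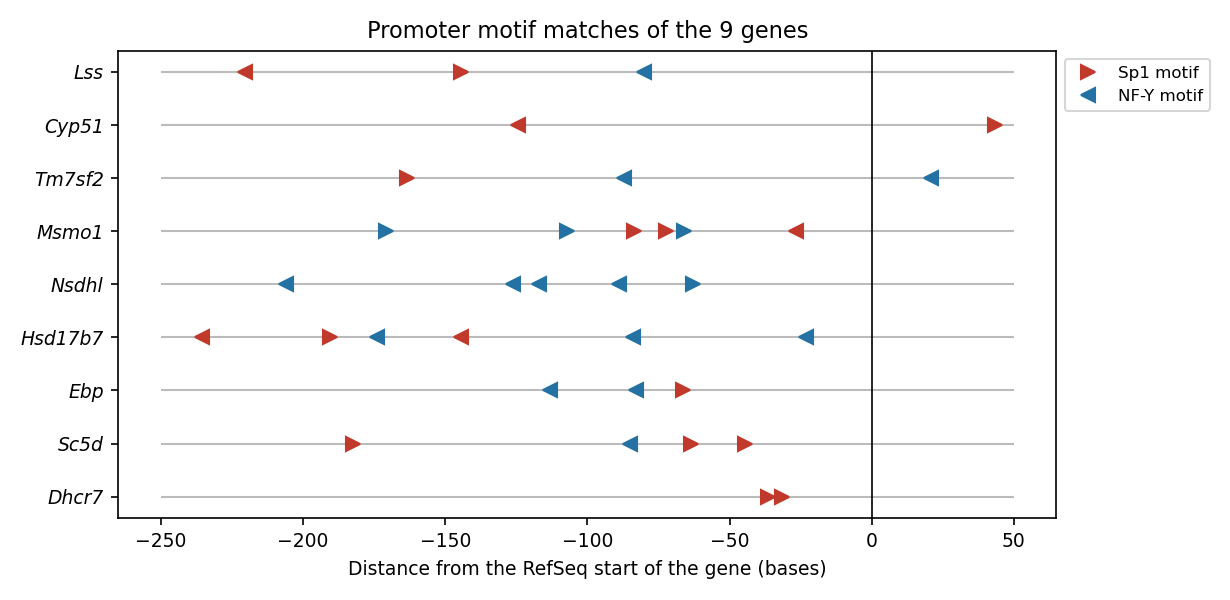
Positions of the NF-Y and Sp1 motif matches on either strand in the promoter windows of the 9 genes, one row per gene, against distance from the gene's start in bases. Cyp51 and Dhcr7 carry Sp1 matches only, and Nsdhl carries 5 NF-Y matches and no Sp1 match.

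Values were deposited on a scale that behaves like a logarithm, with base and normalization unstated in the material used, so differences are printed in those units, as a compound minus control or as myclobutanil minus propiconazole, and no fold change is given. The arrays were brought to 1 distribution by quantile normalization, and a gene with several probe sets is represented by the one with the highest mean over the 12 arrays. A gene was called where limma's moderated test gave a Benjamini-Hochberg adjusted p under 0.05 over the 21729 probe sets tested, a set that left out the dimmest 30% and kept all 15 probe sets of the 9 genes. The array of myclobutanil replicate 1 stood apart, with a deposited median of 0.157 against 0.0182 to 0.0552 on the other 11 arrays and a median correlation with the other arrays of 0.927 against 0.962 to 0.982. The liver label held: the albumin probe set was the brightest on all 12 arrays, and the 9 hepatocyte markers tested averaged 2.84 to 3.15 in myclobutanil livers, 3.12 to 3.25 in propiconazole livers, 3.16 to 3.22 in triadimefon livers and 3.07 to 3.19 in control livers. With bulk liver RNA, fewer cells of a type and less RNA per cell cannot be told apart.

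Of the 9 genes, 1 changed against control, in propiconazole livers. The gene called was Nsdhl, which fell, where 0.621% of all probe sets tested were called lower and 0.81% higher. Myclobutanil livers had 0 genes called, where 1.03% of probe sets were called higher and 0.787% lower, and triadimefon livers had 0 genes called, where 0.488% were called higher and 0.281% lower. Before adjustment, at p under 0.05, 3 genes were higher under myclobutanil (Cyp51, Msmo1 and Sc5d), against 9.2% of all probe sets, and 0 were lower, against 11.9%. Under triadimefon 3 were higher at that level (Cyp51, Tm7sf2 and Sc5d), against 7.02%, and 1 was lower (Nsdhl), against 6.42%. Under propiconazole 0 were higher, against 7.73%, and only Nsdhl was lower, against 6.78%.

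The median difference of the 9 genes from control was 0.290 under myclobutanil, with 9 of 9 above 0, beside a median of -0.0136 over all probe sets tested, of which 44.6% were above 0. It was -0.170 under propiconazole, with 1 of 9 above 0, beside -0.0123 and 43.4%. Under triadimefon it was 0.363, with 6 of 9 above 0, beside -0.0128 and 43.4%. These 3 comparisons share the control arrays, so their values are not independent of each other. The count of 9 under myclobutanil rests on Nsdhl, the lowest of the genes at 0.0131. With the values as deposited, median centring, array weights or the mean of a gene's probe sets, 8 of 9 lay above 0. Array by array, the mean of the 9 differences from the control mean was 0.131, 0.503 and 0.320 in the myclobutanil livers, -0.296, -0.246 and -0.0821 in the propiconazole livers and 0.0550, 0.191 and 0.439 in the triadimefon livers, against 0.0163, 0.108 and -0.124 in the control livers. By this mean all 3 propiconazole livers lay below 0, 2 of them below the lowest control liver, and the 3 myclobutanil livers lay above the highest control liver. By the median of the 9 differences the myclobutanil livers did not all do so. Replicate 1 stood at 0.0147, below control replicate 2 at 0.0685, while myclobutanil replicates 2 and 3 stood at 0.506 and 0.109.

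**Figure D2:**
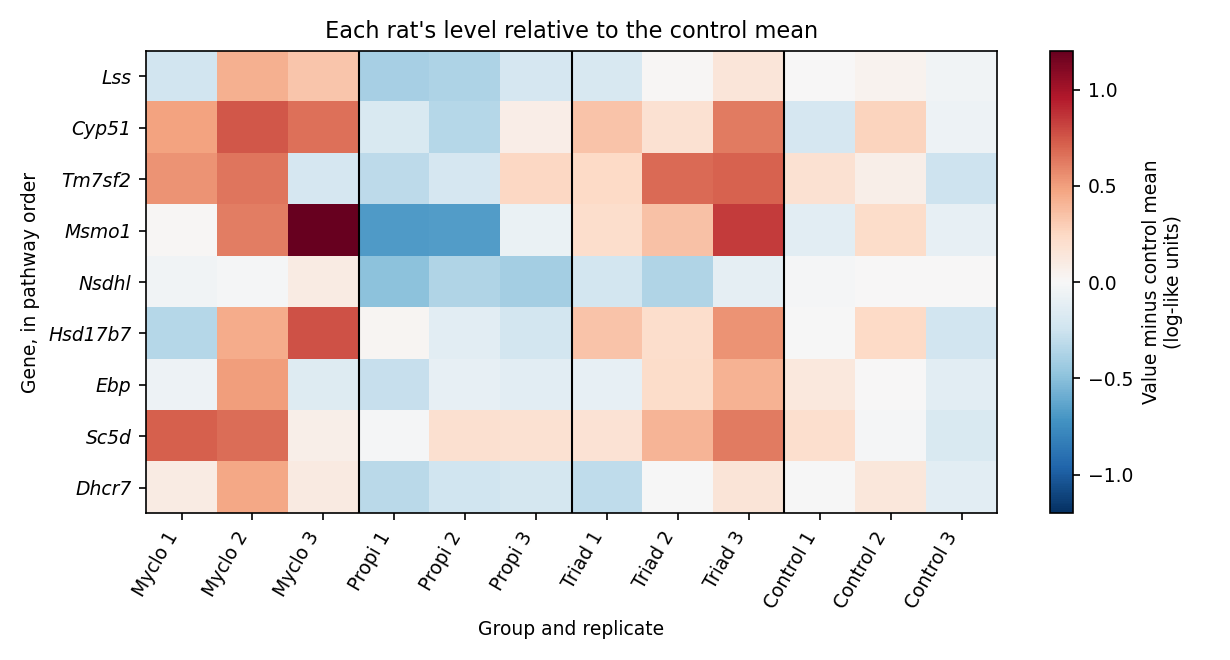
Difference of each of the 9 genes from its control mean, in deposited units, with genes in pathway order down the page and the 12 arrays across it, the compounds left of control. The number of genes above the control mean is 5, 8 and 7 in the myclobutanil livers, 1, 1 and 3 in the propiconazole livers, 5, 7 and 8 in the triadimefon livers and 4, 8 and 1 in the control livers.

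Lss, which cyclises squalene epoxide to lanosterol, read 0.584, 1.24 and 1.15 in myclobutanil livers, 0.412, 0.444 and 0.607 in propiconazole livers and 0.620, 0.828 and 0.957 in triadimefon livers, against 0.819, 0.851 and 0.764 in control livers (probe set 1372973_at). All 3 propiconazole values lay below the lowest control. The difference from control was -0.324 ± 0.148 (SE, n = 3 rats each) under propiconazole, with an adjusted p of 0.344, and 0.180 under myclobutanil, with an adjusted p of 0.499. Triadimefon differed from control by -0.00979, with an adjusted p of 0.989. The other Lss probe set, 1368086_a_at, overlapped control under each compound, with differences of 0.101 under myclobutanil, -0.0671 under propiconazole (adjusted p = 0.889) and 0.0392 under triadimefon.

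Cyp51 was highest in myclobutanil livers, at 2.71, 2.98 and 2.90, followed by triadimefon livers at 2.57, 2.42 and 2.86, while propiconazole livers read 2.05, 1.89 and 2.31 and control livers 2.03, 2.50 and 2.17 (probe set 1367979_s_at, whose probes can match more than 1 transcript). The group means were 2.86 ± 0.135 in myclobutanil, 2.62 ± 0.223 in triadimefon, 2.09 ± 0.209 in propiconazole and 2.23 ± 0.244 in control livers (SD, n = 3 each). All 3 myclobutanil values lay above every control and every propiconazole value, and all 3 triadimefon values lay above every propiconazole value, at doses that differ. In the order of the means, myclobutanil, triadimefon, control and propiconazole, each group overlapped the next. The difference from control was 0.631 ± 0.152 (SE) under myclobutanil, with a 95% interval of 0.297 to 0.966 and an adjusted p of 0.0634, which missed the threshold. It was 0.386 under triadimefon, with an interval of 0.0512 to 0.720 and an adjusted p of 0.303, and -0.147 under propiconazole, with an interval of -0.481 to 0.187 and an adjusted p of 0.717. The dimmer Cyp51 probe set, 1387020_at, gave the same order of group means, 1.14, 1.05, 0.706 and 0.830 in myclobutanil, triadimefon, propiconazole and control livers, and correlated with the brighter one at r = 0.850 over the 12 arrays, which carry the same 4 groups and are no repeat measurement. Its difference from control under myclobutanil was 0.312 ± 0.130 (SE), with an adjusted p of 0.203.

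**Figure D3:**
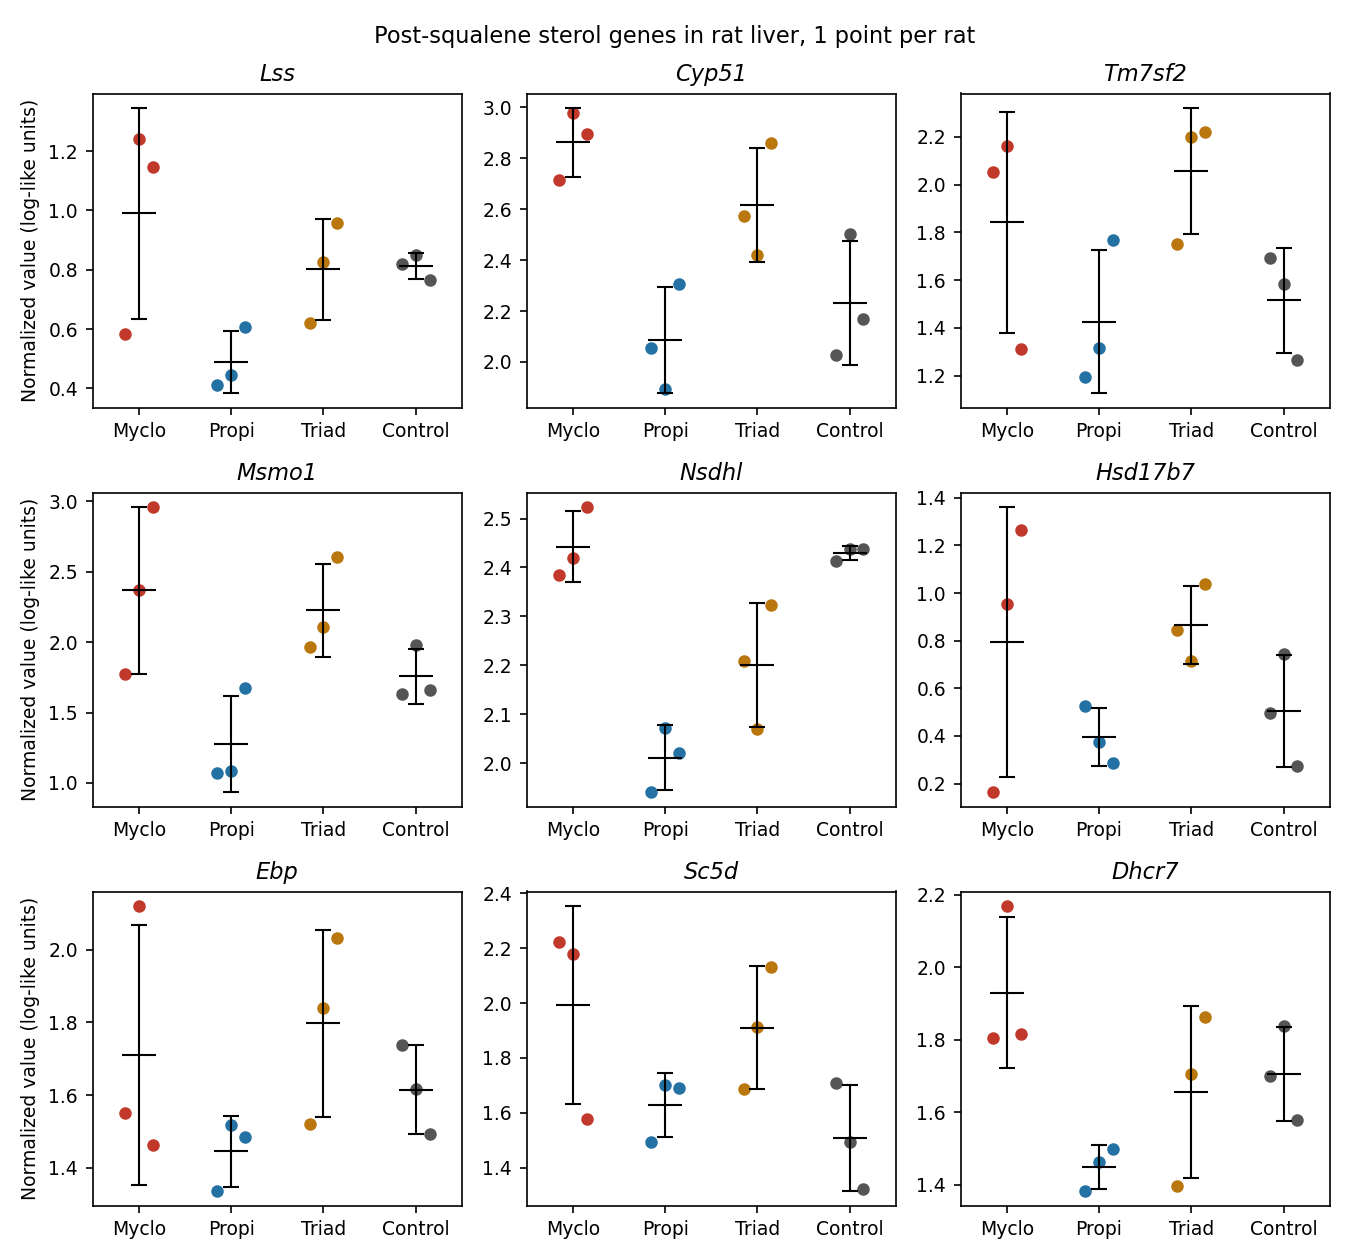
Level of each of the 9 genes in deposited units, 1 panel per gene, with 1 point per rat and the group mean and SD, in the order myclobutanil, propiconazole, triadimefon and control. The 3 myclobutanil points of Cyp51 lie above all control points, and the 3 propiconazole points of Nsdhl lie below all control points.

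Tm7sf2, a sterol reductase that saturates the bond left after the Cyp51 step (probe set 1389725_at), read 1.75, 2.20 and 2.22 in triadimefon livers, against 1.69, 1.58 and 1.27 in control livers, so the groups did not overlap. That difference was 0.542 ± 0.232 (SE), with an adjusted p of 0.336, and 1 of the 9 genes stood wholly above control in this way, where 12.5% of all probe sets did. Myclobutanil livers read 2.05, 2.16 and 1.31 and propiconazole livers 1.20, 1.32 and 1.77. Both overlapped the control values, with differences of 0.327 and -0.0885 and adjusted p of 0.431 and 0.909.

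The enzymes that remove the remaining methyl groups held both the gene that passed the test and the widest spread. Msmo1, the oxidase that opens this removal (probe set 1368275_at), read 1.77, 2.37 and 2.96 in myclobutanil livers, 1.07, 1.08 and 1.67 in propiconazole livers and 1.97, 2.11 and 2.60 in triadimefon livers, against 1.63, 1.98 and 1.66 in control livers. It differed from control by 0.611 ± 0.277 (SE) under myclobutanil (adjusted p = 0.234), by -0.480 under propiconazole (adjusted p = 0.467) and by 0.468 under triadimefon (adjusted p = 0.509). Its SD of 0.594 among myclobutanil rats was the largest of the 9 genes in any group, so the 3 rats of that group were far apart.

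Nsdhl, the dehydrogenase that also removes a carbon as carbon dioxide in this step, fell in propiconazole livers. It read 2.38, 2.42 and 2.52 in myclobutanil livers, 1.94, 2.07 and 2.02 in propiconazole livers and 2.21, 2.07 and 2.32 in triadimefon livers, against 2.41, 2.44 and 2.44 in control livers (probe set 1392988_at). The propiconazole values lay below all of control, and the difference was -0.418 ± 0.0791 (SE), with a 95% interval of -0.592 to -0.245 and an adjusted p of 0.0299. The other Nsdhl probe set, 1392604_at, was also called, at -0.470 ± 0.0874 (SE) with an adjusted p of 0.0283, and read 1.10, 1.22 and 1.24 in propiconazole livers, against 1.71, 1.69 and 1.57 in control livers. By 1392988_at triadimefon livers also lay wholly below control, by -0.228 with an interval of -0.402 to -0.0542, and the adjusted p was 0.241. By 1392604_at they overlapped control, with a difference of -0.1865, an interval of -0.378 to 0.00533 and an adjusted p of 0.387. Myclobutanil livers differed from control by 0.0131 for 1392988_at, with an interval of -0.161 to 0.187 and an adjusted p of 0.940. For 1392604_at that difference was -0.0752, with an interval of -0.267 to 0.117 and an adjusted p of 0.636. The propiconazole call was lost on leaving out any control or propiconazole array, with adjusted p from 0.0562 to 0.124, and with the values as deposited, at -0.502 with an adjusted p of 0.0698. The moderated F test over the 4 groups called Nsdhl alone among the 9, with an adjusted p of 0.0470, where 1.07% of all probe sets were called, and Cyp51 came next at 0.0693. This F test call was lost with the values as deposited, with median centring, with all probe sets kept and with the replicate block. It was also lost on leaving out any array but myclobutanil replicate 1.

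Hsd17b7, the keto reductase that completes each round of that removal, overlapped control in all 3 compounds for its brighter probe set, 1389430_at, which read 0.163, 0.954 and 1.26 in myclobutanil livers. Its readings were 0.527, 0.373 and 0.286 in propiconazole livers and 0.847, 0.713 and 1.04 in triadimefon livers, against 0.495, 0.744 and 0.273 in control livers. The dimmer probe set, 1387233_at, lay wholly above control under both myclobutanil and triadimefon, by 0.437 ± 0.122 (SE) with an adjusted p of 0.0872 and by 0.301 with an adjusted p of 0.314. The same comparisons gave 0.290 and 0.363 for the brighter probe set, with adjusted p of 0.476 and 0.534. Under propiconazole the brighter probe set gave -0.109 and the dimmer 0.0745, so they did not share a sign, with adjusted p of 0.881 and 0.837.

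Ebp, the isomerase that shifts a double bond within the ring (probe set 1386990_at), did not stand apart in any group. It read 1.55, 2.12 and 1.46 in myclobutanil livers, 1.33, 1.52 and 1.48 in propiconazole livers and 1.52, 1.84 and 2.03 in triadimefon livers, against 1.74, 1.62 and 1.49 in control livers, with differences from control of 0.0964, -0.170 and 0.182. Sc5d, the desaturase that follows it, read 2.22, 2.18 and 1.58 in myclobutanil livers, 1.49, 1.70 and 1.69 in propiconazole livers and 1.69, 1.91 and 2.13 in triadimefon livers, against 1.71, 1.49 and 1.32 in control livers (probe set 1387926_at). It differed from control by 0.487 ± 0.175 (SE) under myclobutanil (adjusted p = 0.151) and by 0.404 under triadimefon (adjusted p = 0.346). Its probe set 1390777_at gave 0.427 and 0.354 in these comparisons, with adjusted p of 0.0810 and 0.209, and 1389111_at gave 0.102 and 0.122. Under propiconazole the 3 Sc5d probe sets gave 0.123, -0.0770 and -0.228 for 1387926_at, 1390777_at and 1389111_at, so they did not share a sign.

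Dhcr7, the reductase of the final step to cholesterol (probe set 1368189_at), read 1.81, 2.17 and 1.81 in myclobutanil livers, 1.38, 1.46 and 1.50 in propiconazole livers and 1.40, 1.71 and 1.86 in triadimefon livers, against 1.70, 1.84 and 1.58 in control livers. All propiconazole values lay below control, by -0.258 ± 0.132 (SE) with an adjusted p of 0.406. By their representing probe sets, 3 of the 9 genes (Lss, Nsdhl and Dhcr7) lay wholly below control under propiconazole, where 15.7% of all probe sets did, and 0 lay wholly above, where 12.1% did. Only Cyp51 lay wholly above control under myclobutanil, where 10.2% did, and 0 lay wholly below, where 13.1% did. Only Nsdhl lay wholly below control under triadimefon, where 15.8% did, and its probe set 1392604_at overlapped control. Over all 15 probe sets, 3 lay wholly above control under myclobutanil (Cyp51 1367979_s_at, Hsd17b7 1387233_at and Sc5d 1390777_at) and 5 wholly below control under propiconazole, with both of Nsdhl and Sc5d 1389111_at among them. Under triadimefon 3 lay wholly above control (Tm7sf2, Hsd17b7 1387233_at and Sc5d 1390777_at), where 12.5% of all probe sets did.

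Myclobutanil and propiconazole, a nitrile and a dioxolane ketal that share the triazole ring, were the only pair given at 1 dose, and they are the only pair compared here. All 9 genes had the higher mean in myclobutanil livers, with a median difference of 0.431, beside -0.00594 over all probe sets tested, of which 46.9% were above 0. Of the 9, 0 passed limma's test, which called 0% of all probe sets. Before adjustment, at p under 0.05, 5 of the 9 were higher under myclobutanil (Lss, Cyp51, Msmo1, Nsdhl and Dhcr7) and 0 were lower, where 4.86% of all probe sets were higher and 5.26% lower. The values of the 2 groups did not overlap for 4 of the 9 (Cyp51, Msmo1, Nsdhl and Dhcr7), where 6.31% of all probe sets lay wholly higher and 7.13% wholly lower. This comparison shares its arrays with those against control.

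Msmo1 differed most between the 2 compounds, by 1.09 ± 0.277 (SE), with a 95% interval of 0.484 to 1.70 and an adjusted p of 0.293. Cyp51 differed by 0.778, with an interval of 0.444 to 1.11 and an adjusted p of 0.175. Nsdhl differed by 0.431, with an interval of 0.258 to 0.605 and an adjusted p of 0.161. For these 3 genes the myclobutanil livers lay above the propiconazole livers throughout, while the test against control was passed by Nsdhl in propiconazole livers and by none of the 3 in myclobutanil livers.

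Lss differed by 0.503, with an interval of 0.179 to 0.827 (adjusted p = 0.365), while its other probe set, 1368086_a_at, differed by 0.168, with an interval of -0.155 to 0.491. Dhcr7 differed by 0.483, with an interval of 0.192 to 0.773 (adjusted p = 0.338). For the representing probe sets of the other genes the interval of the difference held 0. It ran from -0.0923 to 0.924 for Tm7sf2, from -0.0982 to 0.896 for Hsd17b7, from -0.109 to 0.641 for Ebp and from -0.0202 to 0.749 for Sc5d. For Tm7sf2 and Hsd17b7 these intervals hold the difference measured for Cyp51, and for none of the genes do they show that the compounds act alike. Other probe sets of Hsd17b7 and Sc5d had intervals above 0. For Hsd17b7 1387233_at the interval ran from 0.0953 to 0.630 (adjusted p = 0.417). It ran from 0.253 to 0.755 for Sc5d 1390777_at (adjusted p = 0.247) and from 0.00447 to 0.656 for Sc5d 1389111_at (adjusted p = 0.491).

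**Figure D4:**
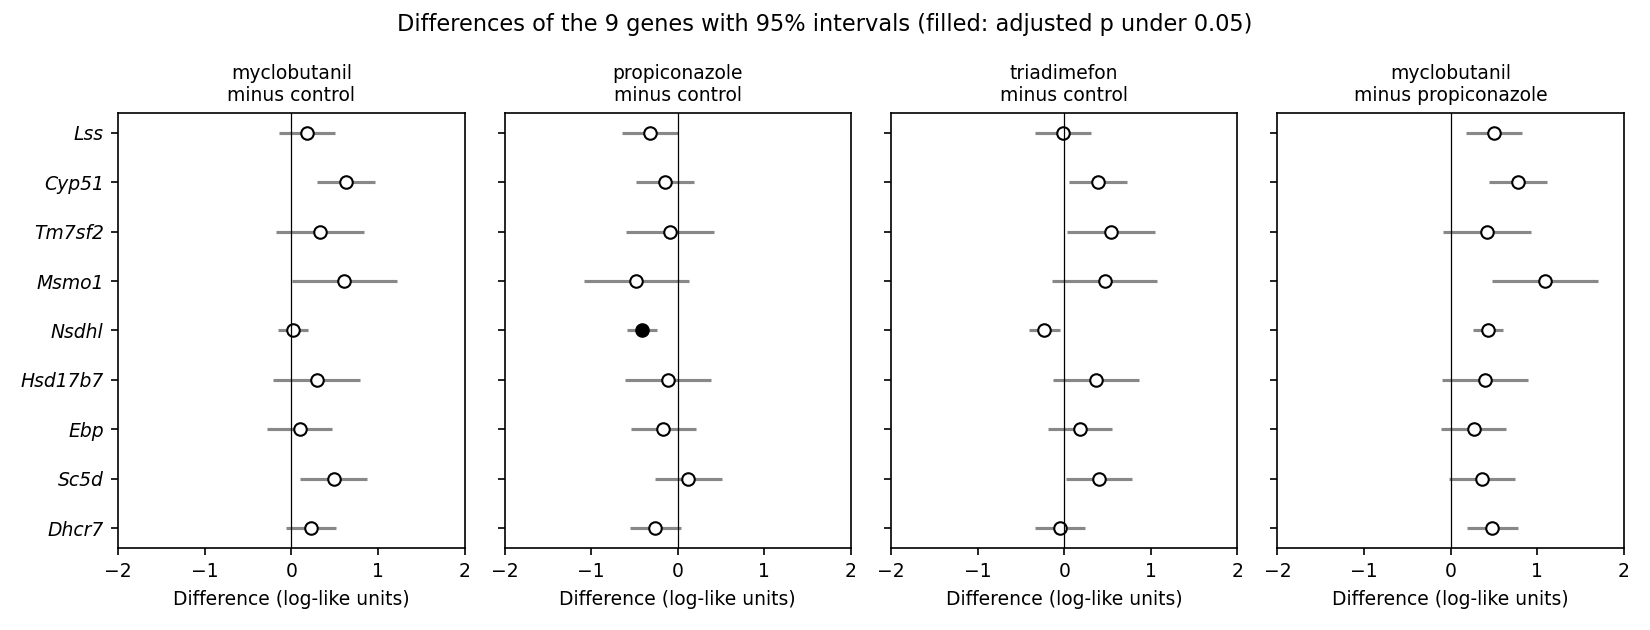
Difference in deposited units, with its 95% interval, for each of the 9 genes in each of the 4 comparisons. Every myclobutanil minus propiconazole point lies above 0, between 0.266 for Ebp and 1.09 for Msmo1, and Nsdhl is the one gene called, in propiconazole minus control.

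The myclobutanil comparisons rest in part on the array that stood apart. Myclobutanil replicate 1 had the lowest value of its group for Lss, Cyp51, Msmo1, Nsdhl, Hsd17b7 and Dhcr7, and the highest for Sc5d. Without it, the moderated F test called 4 of the 9 genes, with adjusted p of 0.0170 for Lss, 0.0491 for Cyp51, 0.0368 for Msmo1 and 0.0294 for Nsdhl, where 3.17% of all probe sets were called. In the same setting Lss was called higher in myclobutanil than in propiconazole livers, by 0.713 with an adjusted p of 0.0293, where 0.0966% of all probe sets were called higher. Markers of Kupffer cells and macrophages also moved with this group: the mean level of the 8 tested was 0.209 to 0.817 in myclobutanil livers, against 1.07 to 1.20 in propiconazole livers, 1.04 to 1.19 in triadimefon livers and 1.12 to 1.28 in control livers. The 0.817 was that of myclobutanil replicate 1, so the array that stood apart lay nearest to the other groups in these markers. Of the 8, 5 were called lower under myclobutanil than in control, where 0.787% of all probe sets were. The median difference of the 8 was -0.694, and the part of these markers in the results was not tested.

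The genes that feed the pathway leaned the same way under myclobutanil, and here 2 passed the test, where 1.03% of all probe sets were called higher. Of 8 tested enzymes from acetyl-CoA to squalene epoxide, Sqle, the squalene epoxidase that makes the substrate of Lss, rose by 1.03 ± 0.189 (SE; adjusted p = 0.0260), and Acat2, the thiolase that opens the pathway, rose by 0.671 ± 0.144 (SE; adjusted p = 0.0445). Sqle read 1.21, 1.30 and 1.74 in myclobutanil livers, 0.483, 0.650 and 0.885 in propiconazole livers and 0.925, 1.31 and 1.55 in triadimefon livers, against 0.415, 0.615 and 0.121 in control livers. The myclobutanil and triadimefon values lay above all controls, and the triadimefon difference of 0.879 had an adjusted p of 0.0645. All 8 had a mean above control under myclobutanil, with a median of 0.477, where 44.6% of all probe sets did. All 8 did under triadimefon, with a median of 0.229, where 43.4% of all probe sets did. There 0 were called, and 2 were higher before adjustment by limma's test, at p under 0.05, where 7.02% of all probe sets were. Under propiconazole 4 of 8 had a mean above control, with a median of -0.00972, where 43.4% of all probe sets did. There 0 were called, and 1 was lower before adjustment, where 6.78% of all probe sets were. With only the 2 groups in the fit the adjusted p of Sqle under myclobutanil was 0.133 and that of Acat2 0.209, and both were called under triadimefon, at 0.0455 for Sqle and 0.0365 for Acat2. The triadimefon difference of Sqle was also called with the values as deposited, at 0.0323, with the dimmest 50% left out, at 0.0499, and with array weights, at 0.0101. Leaving out 1 array ended the Sqle call for any control array or myclobutanil replicate 3, with adjusted p of 0.0567 to 0.122, and the Acat2 call for 11 of the 12 arrays, all but myclobutanil replicate 1, with adjusted p of 0.0586 to 0.179. The Acat2 call was also lost with median centring, at 0.0740, and with no probe sets left out as dim, at 0.0550.

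At equal dose, 6 of the 8 feeding enzymes were higher in myclobutanil than in propiconazole livers before adjustment, at p under 0.05, where 4.86% of all probe sets were. After adjustment 0 were called, as over all probe sets. Fdft1, the squalene synthase, read 2.04, 1.99 and 2.09 in myclobutanil livers, against 1.08, 1.29 and 1.44 in propiconazole livers, a difference of 0.771 ± 0.117 (SE) with an adjusted p of 0.0779. Idi1, an isomerase of the isoprenoid units, differed by 1.17 with an adjusted p of 0.254. Erg28, known in yeast as a scaffold of the enzymes that remove the methyl groups, was the closest to a call among 4 other late sterol genes, of which 0 were called in any comparison. Before adjustment, 2 of the 4 were higher under myclobutanil, where 9.2% of all probe sets were, and 1 under triadimefon, where 7.02% were. Under propiconazole 0 were past p of 0.05, where 7.73% of all probe sets were higher and 6.78% lower. Erg28 read 1.36, 1.28 and 1.67 in myclobutanil livers, 0.585, 0.719 and 0.952 in propiconazole livers and 1.18, 0.974 and 1.16 in triadimefon livers, against 0.975, 1.02 and 0.865 in control livers. Its difference from control under myclobutanil was 0.484 ± 0.118 (SE; adjusted p = 0.0660).

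**Figure D5:**
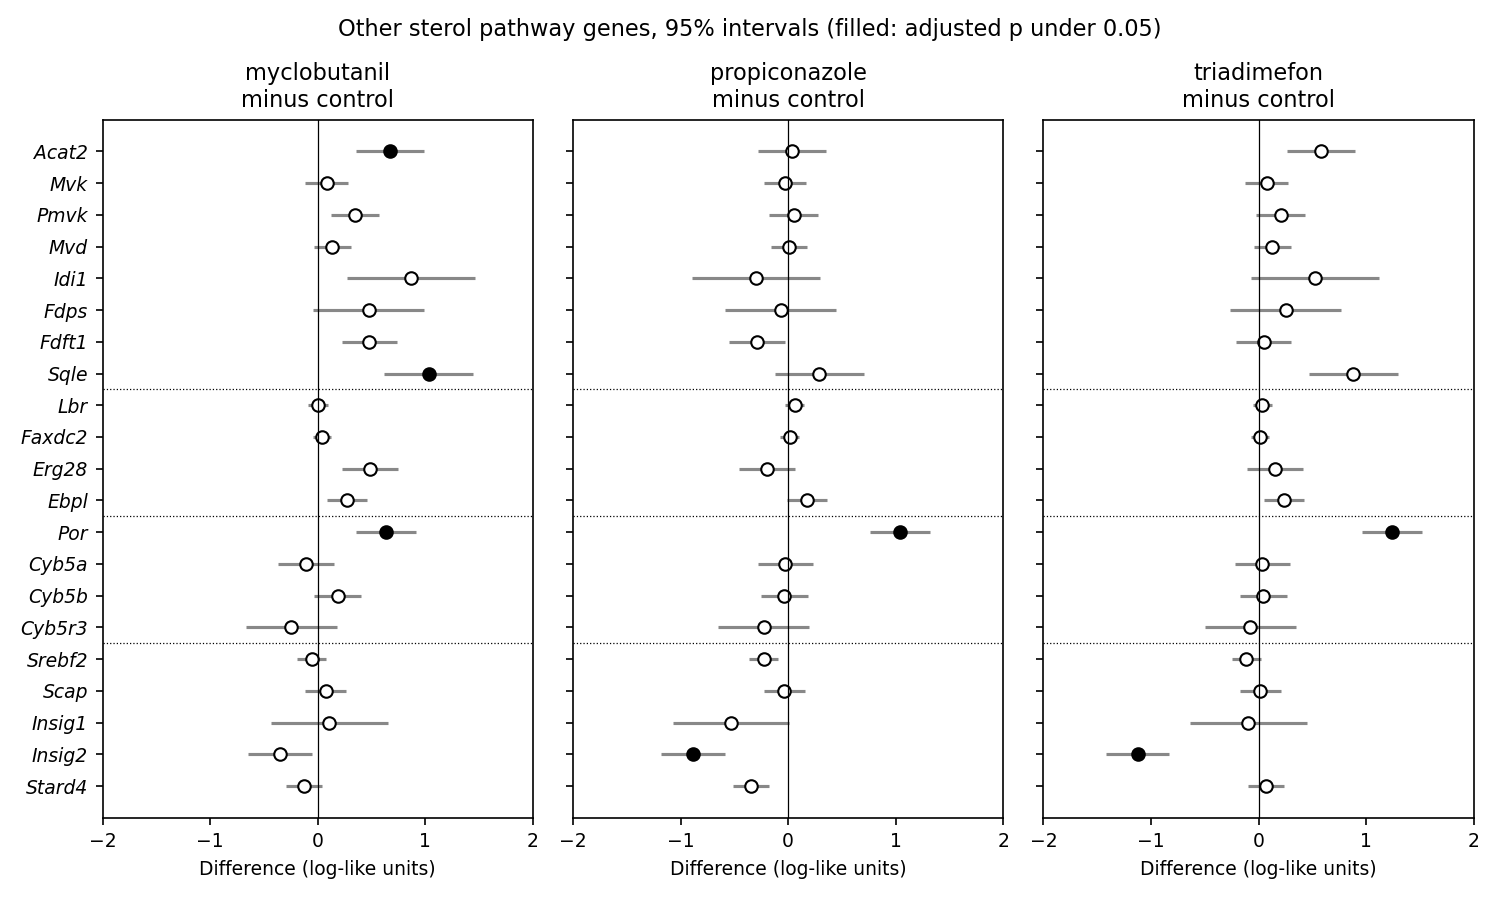
Difference of each compound from control, in deposited units with its 95% interval, for each tested gene of the feeding pathway, the other late sterol genes, the electron partners and the regulators of sterol synthesis. Por lies above 0 for each compound against control, from 0.638 to 1.24, and Insig2 lies below 0, from -1.13 to -0.347.

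Electron supply and sterol regulation also held calls. Por, the reductase that passes electrons to Cyp51 and to other microsomal cytochromes P450, rose under all 3 compounds: it read 1.44, 1.46 and 1.44 in myclobutanil livers, 1.74, 1.95 and 1.85 in propiconazole livers and 2.01, 2.24 and 1.90 in triadimefon livers, against 1.11, 0.665 and 0.647 in control livers. The differences from control were 0.638 ± 0.127, 1.04 ± 0.127 and 1.24 ± 0.127 (SE), with adjusted p of 0.0362 for myclobutanil, 0.00642 for propiconazole and 0.00476 for triadimefon. The call under myclobutanil was lost with the mean of all Por probe sets in place of the brightest, at 0.346 with an adjusted p of 0.270, with median centring (0.0663), with only the 2 groups in the fit (0.177), with the replicate block (0.0685) and on leaving out any of 7 arrays, with adjusted p of 0.0528 to 0.156. The calls under propiconazole and triadimefon stood in every alternative run, with adjusted p up to 0.0409 and 0.0337. Of the other electron partners, Cyb5a, Cyb5b and Cyb5r3, 0 were called in any comparison. Before adjustment 1 was past p of 0.05, Cyb5b, higher in myclobutanil than in propiconazole livers, where 4.86% of all probe sets were. Por itself was lower in myclobutanil than in propiconazole livers at that level, where 5.26% of all probe sets were. Its difference was -0.404 ± 0.127 (SE), with an adjusted p of 0.394.

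Insig2, an endoplasmic reticulum protein that holds SREBP in place when sterols are plentiful, fell under propiconazole and triadimefon. It read 2.22, 1.99 and 2.50 in myclobutanil livers, 1.95, 1.66 and 1.51 in propiconazole livers and 1.51, 1.44 and 1.43 in triadimefon livers, against 2.49, 2.63 and 2.64 in control livers. The differences were -0.882 ± 0.135 and -1.13 ± 0.135 (SE), with adjusted p of 0.0153 and 0.00889, and -0.347 under myclobutanil with an adjusted p of 0.176. The propiconazole call was lost without control replicate 2 or 3 or propiconazole replicate 3, with adjusted p of 0.0671 to 0.0768, and the triadimefon call without control replicate 3 or triadimefon replicate 2, with 0.0522 and 0.0509. Of the 5 regulators tested, Insig2 was the only one called, where 0.621% of all probe sets were called lower under propiconazole and 0.281% under triadimefon. Stard4, a sterol carrier, differed by -0.347 under propiconazole with an adjusted p of 0.0526, Srebf2, the gene of SREBP-2, by -0.229 with an adjusted p of 0.109, and Insig1, the close relative of Insig2, by -0.530 with an adjusted p of 0.359. All 5 had a lower mean under propiconazole than in control, with a median of -0.347, where 43.4% of all probe sets lay above 0. All 5 had a higher mean under myclobutanil than under propiconazole, with a median of 0.215, where 46.9% of all probe sets did. In that comparison 0 were called, and 4 were higher before adjustment by limma's test, at p under 0.05, where 4.86% of all probe sets were.

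Across the 12 arrays all 36 pairs of the 9 genes correlated above 0, with a median Pearson r of 0.583. The closest were Cyp51 and Msmo1, at 0.877, Tm7sf2 and Sc5d, at 0.868, Lss and Msmo1, at 0.867, and Lss and Dhcr7, at 0.848, and the weakest pair was Tm7sf2 and Nsdhl, at 0.0813. The points share 4 groups of 3 rats and the quantile scaling, so the values describe these arrays only. Among 11833 other genes, those most like Cyp51 over the 12 arrays were Dzip1l at 0.932, Dpysl2 at 0.924, Mmgt1 at 0.891, Acat2 at 0.888 and Slc39a11 at 0.879. Of these 5, Acat2 under myclobutanil was the only one called against control, where 1.03% of all probe sets were called higher.

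Markers of other cells in liver gave these results against control. Over all probe sets, 1.03% were called higher and 0.787% lower under myclobutanil, 0.81% and 0.621% under propiconazole, and 0.488% and 0.281% under triadimefon. Before adjustment, at p under 0.05, these shares were 9.2% and 11.9%, 7.73% and 6.78%, and 7.02% and 6.42%, in the same order. The Kupffer and macrophage markers had 0 of 8 called under propiconazole and 0 of 8 under triadimefon by limma's test, and 0 in both before adjustment. Of 9 hepatocyte markers, Cyp2e1 was called lower under myclobutanil and Apoa1 higher under propiconazole. Of 4 endothelial markers, Kdr, and of 4 stellate markers, Lrat, were called lower under both myclobutanil and propiconazole. Under triadimefon Kdr and Lrat were lower before adjustment only, by -0.408 and -0.1535, with adjusted p of 0.151 and 0.364. Of 4 leukocyte, 2 cholangiocyte and 3 pancreas markers, 0 were called under any compound. Before adjustment, at p under 0.05, 0 leukocyte markers passed, 1 cholangiocyte marker was higher under each compound and 1 was lower under myclobutanil, and the pancreas markers had 1 lower under myclobutanil, 1 under propiconazole and 2 under triadimefon. The endothelial and the stellate markers each had 1 lower and 0 higher under each compound. Hepatocyte markers had 1 higher and 2 lower under myclobutanil, 1 and 1 under propiconazole, and 1 and 0 under triadimefon. All 8 Kupffer and macrophage markers were lower under myclobutanil at that level.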

How the data were processed

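Liver RNA of 12 rats was hybridised to Affymetrix rat whole-genome GeneChip arrays, 1 rat per array, after quality control, per the labels' protocols. The deposited values are a score per probe set on a log-like scale, and the software and settings with which the authors made it are not stated per the labels. The planned analysis assumed log-scale values, and the same test was kept on the score. No 2 arrays were identical.

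In R 4.3.3, 57 control probe sets were left out, and the arrays were quantile normalized because their medians ranged over 0.139, more than the median SD within groups of 0.0736. The 9313 probe sets with the lowest means (30%) were left out, and limma 3.58.1 fitted 4 group means with an intensity trend (8 residual degrees of freedom, two-sided moderated tests, Benjamini-Hochberg over 21729 probe sets per comparison). The number of arrays limits the precision. Gene names came from the platform annotation, in which 20826 probe sets had 1 gene, 436 several and 9780 none, and 20758 symbols were updated through the RefSeq table of GRCr8. A probe set with several genes or none was not named.

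The 9 genes, the pathway lists and the cell type lists were chosen with earlier results of these data known. All 9 genes and every probe set assigned to each alone are named, list genes where called or with the smallest p, and the 5 genes most like Cyp51 by Pearson r. Some genes of these lists are not reported here. The test was checked on simulated data. Other normalizations, filters, variance models, array weights, a fit of only the 2 groups compared, the replicate number as a block, the mean of a gene's probe sets and each array left out were tried. Figures were drawn with Python 3.11.15 and matplotlib 3.10.9.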

Additional observations from a re-analysis of the deposited data

How the results depend on the processing

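All 9 genes kept the higher mean in myclobutanil than in propiconazole livers in every alternative run. The count of the 9 called lower under propiconazole was 0 with the values as deposited, with median centring and with the replicate number as a block, 2 with only the 2 groups in the fit (Lss and Nsdhl), and 0 to 1 with 1 array left out. Nsdhl under propiconazole was then -0.502 (adjusted p = 0.0698) as deposited, -0.486 (0.0600) centred and -0.418 (0.0607) with the block. With array weights, 3 genes were called higher under myclobutanil than in control (Lss, Cyp51 and Sc5d), where 4.18% of all probe sets were called higher, and 6 higher than under propiconazole (Lss, Cyp51, Msmo1, Nsdhl, Hsd17b7 and Dhcr7), where 1.05% were (343 called in either direction), and leaving out 1 array gave 0 to 1 in the second comparison. Those weights ran from 0.0958 for myclobutanil replicate 1 to 4.62 for myclobutanil replicate 2, and their estimation stopped before it converged. The F test called 0 genes as deposited, centred, with all probe sets kept and with the block, and 8 with array weights, where 8.06% of all probe sets were called. With 1 array left out, it called 4 without myclobutanil replicate 1 and 0 without any other array. For these counts the cause of the change was not tested. Same-numbered arrays did not deviate together (median r of -0.0265 over 18 pairs, from -0.494 to 0.495), and 3 of 12 arrays correlated best with their own number, so the block rests on a shared number only.

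Differences that changed sign were not called in any of these settings. Nsdhl under myclobutanil was -0.160 as deposited, -0.182 centred, -0.00225 with array weights, -0.0310 with the mean of its probe sets and -0.0287 to 0.0413 with 1 array left out. Lss under triadimefon was 0.0348, 0.0454, 0.0447 and 0.0147 in these same settings and -0.0877 to 0.0809 with 1 array left out. Dhcr7 under triadimefon was 0.00507 with array weights and -0.156 to 0.0778 with 1 array left out. Under propiconazole, Sc5d was -0.0608 with the mean of its probe sets, and with 1 array left out Tm7sf2 ran from -0.258 to 0.0269 and Hsd17b7 from -0.225 to 0.0113. Ebp under myclobutanil ran from -0.109 to 0.225. The alternatives were run on Acat2, Sqle, Por and Insig2 as an addition chosen after seeing the data, and there Acat2 under propiconazole was -0.0163 with array weights and -0.0538 to 0.113 with 1 array left out. Over all probe sets the called counts of 395 (myclobutanil), 311 (propiconazole) and 167 (triadimefon) against control ran from 8 to 1668, 36 to 1313 and 6 to 1028 over the alternatives, and the share called higher under propiconazole was 56.6%, against 71.5% after median centring (158 higher, 63 lower).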
